A study of Danio rerio with 9 samples.

Results

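Long intergenic noncoding RNAs (lincRNAs) are transcripts that lie between protein-coding genes and are not translated into protein. Many are spliced from several exons and carry a cap and a tail like messenger RNAs, and their levels are often low and differ between tissues. Known lincRNAs act in the nucleus on chromatin and transcription or in the cytoplasm on other RNAs, and some of those found in mammalian hearts take part in heart development. The transcripts described here were the annotated cardiac lincRNAs of zebrafish with 3 or more exons: those of the study's catalogue of heart lincRNAs that carried a name from the Ensembl or zflncRNApedia annotation and had at least 3 exons, on chromosomes 1 to 25 other than chromosome 4. LincRNAs that the study lists as sharing a bidirectional promoter region with a coding gene, and a few further transcripts, were left out. This gave 122 of the 813 lincRNAs in the catalogue, out of 103079 assembled transcripts with values.

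RNA sequencing had been done on adult heart (age 6 months), embryonic heart (age 4 days) and adult muscle (labelled adult fish, with no age in months), with 3 samples each. All fish were wild type, of the WIK strain according to the study's methods, and no treatment or allele separates the groups. Age and stage differ together between the hearts, and adult muscle serves as the tissue reference. The values were FPKM, the number of sequenced fragments scaled to the length of the transcript and to the size of the library, which allows levels to be compared between transcripts of different length. A whole heart holds several cell types, so a lower level in a tissue can come from fewer cells of a type or from less RNA per cell, and these cannot be told apart.

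Read totals were not part of the table. Each sample's depth relative to adult heart 0 was estimated from the most common ratio of low values, those under 0.15 FPKM in both samples. This assumes that the most common ratio comes from transcripts with equal fragment counts in both. The estimated depth ran between 0.818 and 1.53, and was highest in adult heart samples 1 and 2 (1.26 and 1.53). Embryonic heart samples had 42568 to 43210 transcripts above 0.1 FPKM, against 47079 to 50347 in the other samples. The summed FPKM of the embryonic heart samples was 4.49e+06 to 1.92e+07, with 84.2 to 95.3% of it in 10 transcripts. In the other samples it was 2.79e+06 to 4.64e+06, with 64.2 to 74.7% in 10 transcripts. The part of these differences in the results below was not tested. Pearson correlations of log2(FPKM + 0.1) over the transcripts tested were, between samples of one tissue, 0.857 to 0.886 in adult heart, 0.798 to 0.806 in embryonic heart and 0.858 to 0.871 in adult muscle, and those between tissues were 0.583 to 0.719. The table pairs no gene name with its transcript numbers, so the tissue labels could not be checked against heart or muscle markers.

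The listing of the members was itself made on these samples. A member stands on the study's adult heart sheet when 2 or more of its 3 adult heart samples exceeded 0.1 FPKM, and on the embryonic sheet by the same rule, which fitted all 122 members on both sheets. By this rule 77 members were listed for both hearts, 23 for adult heart only and 22 for embryonic heart only. The direction between adult and embryonic heart was therefore largely set by the listing for the 45 members on one sheet, and counts are given separately for the 77. Likewise, the 36 members on the study's heart-specific sheet were those not above 0.1 FPKM in 2 of 3 muscle samples. All 122 members passed the filter for testing, a mean above 0.1 FPKM in at least 1 tissue type, because the listing asked for much the same.

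The members varied in structure and length. Ensembl names were carried by 95 members and zflncRNApedia names by 27. Exon number was 3 in 44 members, 4 in 39, 5 in 11, 6 in 16 and 7 or more in 12, with a maximum of 20. Spliced length ran from 228 to 13525 nt with a median of 1035 nt, and the genomic span of a member from 703 to 365154 bp. Chromosome 19 held the most members, with 11, followed by chromosome 23 with 9.

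The median level over the 122 members was 0.597 FPKM in adult heart, 0.664 FPKM in embryonic heart and 0.659 FPKM in adult muscle. A mean above 0.1 FPKM was reached by 102 members in adult heart, 101 in embryonic heart and 89 in adult muscle. Means above 1 FPKM were found for 46 members in adult heart, 53 in embryonic heart and 54 in adult muscle, and means above 10 FPKM for 9 in adult heart, 14 in embryonic heart and 15 in adult muscle. In all 3 tissue types together, 70 members (57.4%) had a mean above 0.1 FPKM, while 13 did in adult heart and muscle, 11 in both hearts, 6 in embryonic heart and muscle, 8 in adult heart alone and 14 in embryonic heart alone. Most annotated cardiac lincRNAs with 3 or more exons (73.0%) were therefore measured in muscle as well, beside 77.9% of the other cardiac lincRNAs.

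**Figure D1:**
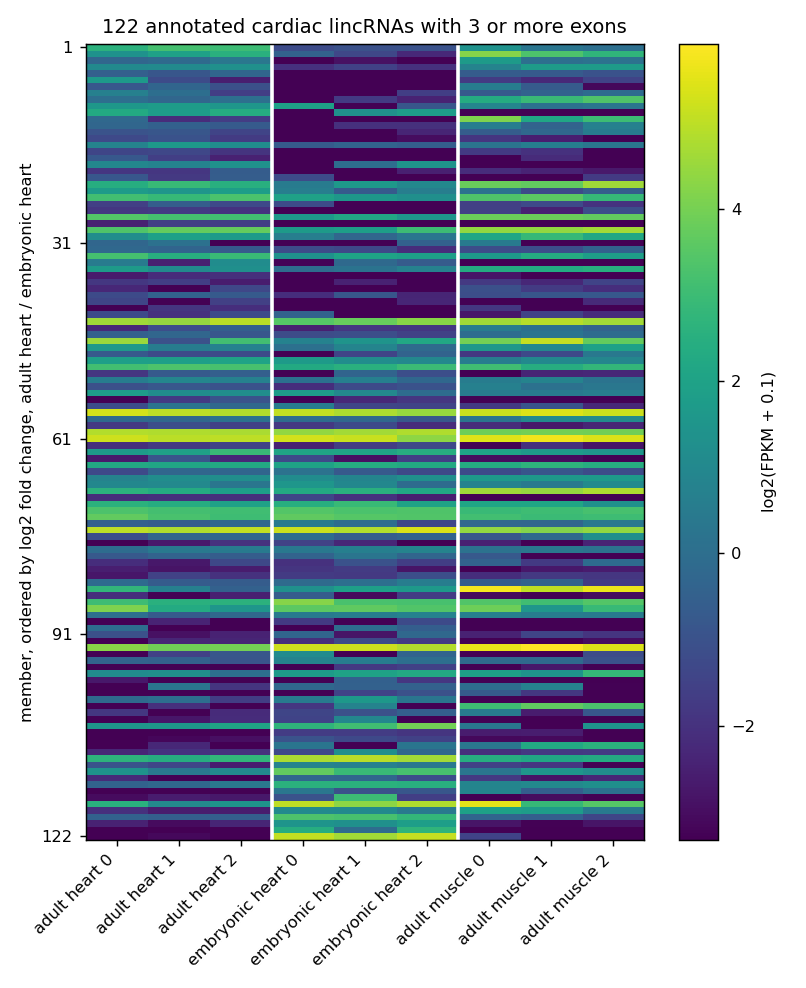
Level of each of the 122 members (rows, ordered by the log2 fold change of adult over embryonic heart) in each of the 9 samples (columns), as log2(FPKM + 0.1). The top rows are bright in adult heart and mostly in adult muscle, the bottom rows in embryonic heart, and a broad middle of rows is alike in all 9 columns.

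A few members held much of the signal. The summed FPKM of the members was 345 to 423 in adult heart samples, 431 to 462 in embryonic heart samples and 522 to 580 in adult muscle samples. In each sample its 7 or 8 highest members held over 50% of this sum, and the 10 members with the highest mean over the 9 samples held 49.3 to 54.4% of it. TCONS_00038369 and TCONS_00038368 (chromosome 18), TCONS_00009311 (chromosome 10), TCONS_00053013 (chromosome 21) and TCONS_00020362 (chromosome 13) were at the top. The 10 highest means also included TCONS_00057717, TCONS_00027090, TCONS_00022435, TCONS_00003145 and TCONS_00041526.

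TCONS_00053013 (lnc2_cd74b_1, Zv9 chr21:32362797-32375645, 3 exons) was listed at 31.7, 28.1 and 33.1 FPKM in adult heart, 36.2, 28.4 and 41.3 FPKM in embryonic heart and 21.1, 18.3 and 21.3 FPKM in adult muscle. All 6 heart samples lay above all muscle samples, while the hearts overlapped. TCONS_00020362 (ENSDART00000139872, chr13:33484732-33491187, 3 exons) was likewise higher in both hearts than in muscle, with 28.4, 28.0 and 26.4 FPKM in adult heart, 21.4, 24.8 and 28.0 FPKM in embryonic heart and 14.4, 15.3 and 14.8 FPKM in adult muscle. It is on the study's list of lincRNAs enriched in adult heart over muscle, a list chosen on these samples. Its adult heart mean was 1.86 times that of muscle and its embryonic heart mean 1.67 times, so neither comparison passed the 2-fold threshold. TCONS_00057717 (lnc1_sc:d217_1, chromosome 22, 7 exons) averaged 25.6 ± 4.72 FPKM in adult heart, 14.6 ± 4.33 FPKM in embryonic heart and 26.4 ± 3.57 FPKM in adult muscle (SD, n = 3 each).

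Levels followed exon number and length only weakly in rank, though medians differed between exon classes. Across the 122 members, Spearman's rho was 0.093 between exon number and mean FPKM over the 9 samples and 0.089 between spliced length and mean FPKM. These points share the same 9 libraries, and members at one locus may share reads, so the values are given as a description. The 12 members with 7 or more exons had a mean above 0.1 FPKM in every tissue, with median levels of 2.05 FPKM in adult heart, 1.56 FPKM in embryonic heart and 1.70 FPKM in adult muscle. Those with 5 to 6 exons had medians of 1.62 FPKM in adult heart, 1.14 FPKM in embryonic heart and 1.21 FPKM in adult muscle. Those with 3 exons had 0.597 FPKM in adult heart, 0.589 FPKM in embryonic heart and 0.659 FPKM in adult muscle. Those with 4 exons had the lowest medians in adult heart and muscle, at 0.261 FPKM and 0.139 FPKM, with 0.608 FPKM in embryonic heart.

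The member with the most exons, TCONS_00033864 (ENSDART00000112675, chr17:49121332-49176355, 20 exons), was among the steadiest. Its levels were 12.8, 9.60 and 8.11 FPKM in adult heart, 12.4, 10.9 and 10.4 FPKM in embryonic heart and 8.53, 7.84 and 8.10 FPKM in adult muscle, and it was called in none of the 3 comparisons. TCONS_00084629 (edal86_1, chromosome 5, 9 exons) averaged 1.57 ± 0.194 FPKM in adult heart, 1.08 ± 0.402 FPKM in embryonic heart and 1.36 ± 0.318 FPKM in adult muscle (SD, n = 3 each), and was not called either. TCONS_00061788 (chromosome 23, 9 exons) averaged 0.492 FPKM in adult heart, 0.225 FPKM in embryonic heart and 0.435 FPKM in adult muscle, also without a call. The longest member, TCONS_00067163 (chromosome 25, 13525 nt), was listed at 0.380, 0.475 and 0.407 FPKM in adult heart, 0.134, 0.336 and 0.400 FPKM in embryonic heart and 1.54, 0.979 and 1.16 FPKM in adult muscle, so muscle stood above both hearts, although the call of adult heart against muscle was lost without any 1 of the 6 samples compared. TCONS_00065389 (ENSDART00000126161, 9 exons over 365154 bp of chromosome 24) was lower in embryonic heart, at 0.339, 0.366 and 0.254 FPKM, against 0.869, 1.06 and 0.839 FPKM in adult muscle, with adult heart between them at 0.618, 0.734 and 0.467 FPKM, and the call between embryonic heart and muscle was lost without muscle sample 1.

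Names from zflncRNApedia went with higher levels than Ensembl names. The 27 zflncRNApedia members had medians of 1.77 FPKM in adult heart, 1.16 FPKM in embryonic heart and 1.70 FPKM in adult muscle, and the 95 Ensembl members medians of 0.407 FPKM in adult heart, 0.493 FPKM in embryonic heart and 0.418 FPKM in adult muscle. Annotated cardiac lincRNAs with 2 exons (125 transcripts) had medians of 0.347 FPKM in adult heart, 0.333 FPKM in embryonic heart and 0.283 FPKM in muscle. Those with 1 exon (64 transcripts) had 0.703 FPKM in adult heart, 0.768 FPKM in embryonic heart and 0.701 FPKM in muscle. Unannotated cardiac lincRNAs with 3 or more exons (70 transcripts) differed most in embryonic heart, with a median of 0.487 FPKM in adult heart, 0.161 FPKM in embryonic heart and 0.420 FPKM in muscle. These medians are descriptions of the lists and were not tested against each other.

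The comparison of adult with embryonic heart asks which lincRNAs change with cardiac maturation. A transcript was called when its Benjamini-Hochberg adjusted p from limma, over 69118 transcripts, was below 0.05 and its ratio of mean FPKM was above 2. Of the 122 members, 23 (18.9%) were called higher in adult heart and 16 (13.1%) lower, beside 12.2% higher and 7.23% lower of all transcripts tested. Cardiac lincRNAs other than the members gave 21.8% higher and 7.41% lower. Of the members' calls, 9 of the 23 and 13 of the 16 held when each of the 6 heart samples was left out in turn. Without adult heart sample 0, 1 or 2, the count of members called higher was 15, 12 or 15, and without embryonic heart sample 1 it was 15. The median log2 fold change of the members was 0.09, against 0.18 over all transcripts. Quantile normalization moved the median of all transcripts to -0.01 and the share of their calls that were higher to 52.3%, from 62.8%, and with it 16 members were called higher and 18 lower, so which direction held more members turned round.

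The 77 members listed for both hearts gave 12 higher and 8 lower. The 23 listed for adult heart only gave 11 higher and 0 lower (limma, 16 with an unadjusted p below 0.05 in this list), and the 22 listed for embryonic heart only gave 0 higher and 8 lower (10 with an unadjusted p below 0.05), directions that the listing fixed. Of the other lists, annotated 2-exon lincRNAs had 13 higher and 9 lower of 124 tested, annotated 1-exon lincRNAs 14 and 10 of 64, and unannotated lincRNAs with 3 or more exons 23 and 4 of 69. The last list was chosen by the same expression rule. Its median log2 fold change was 1.25.

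**Figure D2:**
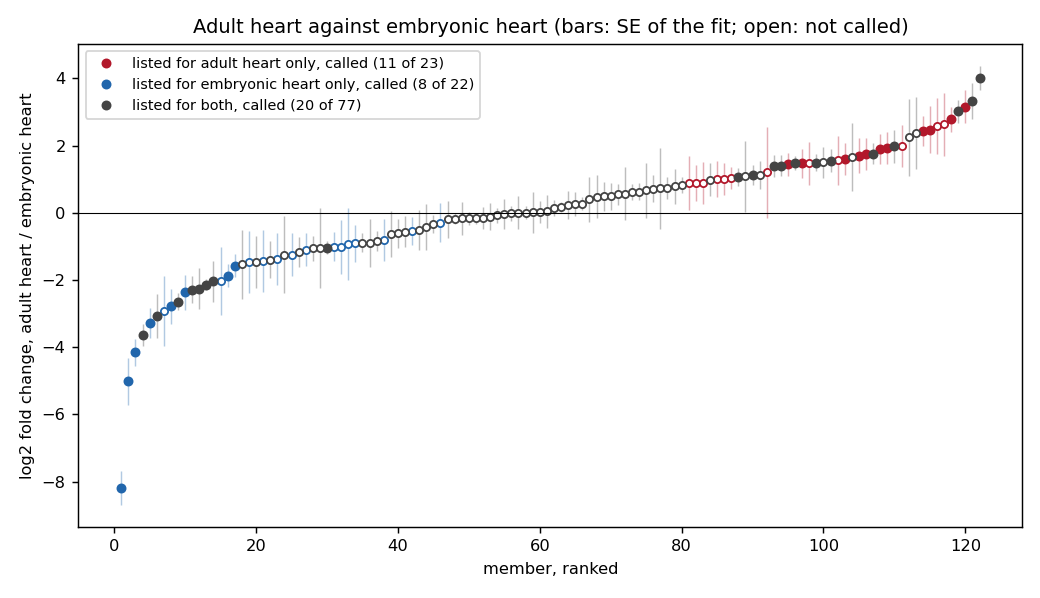
Log2 fold change of adult over embryonic heart for each member, ranked, with bars of 1 SE. Filled points were called and open points were not, coloured by the heart sheet on which the member is listed. The 8 called members among the 22 on the embryonic sheet only lie below 0, the 11 called among the 23 on the adult sheet only lie above 0, and the 77 on both sheets span both sides.

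The members higher in embryonic heart included the most one-sided of the set. TCONS_00045191 (ENSDART00000155541, chr2:362942-365060, 3 exons, 1056 nt) was listed at 0, 0.0148 and 0.000536 FPKM in adult heart, at 33.5, 24.6 and 34.0 FPKM in embryonic heart and at 0.263, 0.00175 and 0.00146 FPKM in adult muscle. The embryonic samples stood alone, with adult heart and muscle close to 0. Its log2 fold change in adult over embryonic heart was -8.18 ± 0.51 (SE, limma adjusted p = 2.67e-05), on the log2(FPKM + 0.1) scale, which understates changes of transcripts near 0. TCONS_00045191 is listed for embryonic heart only and is on the heart-specific sheet. Its direction against both adult tissues was therefore largely set by the listing. The next member, TCONS_00045189, lies 4018 bp away, and was listed at 0.394, 0.0349 and 0.0860 FPKM in adult heart and 0.699, 0.0453 and 0.780 FPKM in embryonic heart, overlapping between the hearts.

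TCONS_00027552 (ENSDART00000153520, chr15:40590079-40592242, 3 exons) was listed at 0 in all 3 adult heart samples, at 5.36, 0.858 and 6.43 FPKM in embryonic heart and at 0 in all 3 muscle samples. Embryonic heart was the one tissue in which it was measured, although sample 1 was well below the other two. It was called lower in adult than in embryonic heart (limma adjusted p = 0.00151). It is listed for embryonic heart only and is on the heart-specific sheet, so its direction was largely set by the listing. Its 6 values at 0 also add no spread to the estimate behind this p. No fold is given, because its size against samples listed at 0 is set by the value added before taking logs, and an exact 0 in such a table can also be a failed estimate. The neighbouring member TCONS_00027553, 14047 bp further on, was at 3.17, 3.83 and 7.57 FPKM in adult heart and 4.06, 4.12 and 5.32 FPKM in embryonic heart, and overlapped between the hearts.

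TCONS_00070135 (ENSDART00000157382, chr3:27046784-27050353, 4 exons, 2278 nt) is on the study's list of fetal lincRNAs, those at least several-fold different between embryonic and adult heart in these samples, so its direction is no independent evidence. It was listed at 0.0850, 0.0219 and 0.0947 FPKM in adult heart, 2.64, 2.40 and 3.53 FPKM in embryonic heart and 0.0444, 0.00285 and 0.0445 FPKM in adult muscle. The 3 embryonic samples lay together and far above the rest. The log2 fold change in adult over embryonic heart was -4.16 ± 0.40 (SE, limma adjusted p = 0.00025). The study, which ran PCR on many of its lincRNAs, gives a primer pair for quantitative PCR of this one. The primers are shown here 5′ to 3′ because they identify this strongly embryonic transcript by sequence.
forward: tgtggacaaaactcagttcc
reverse: ctcctctttcacatgaagcg

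TCONS_00029483 (ENSDART00000155421, chr16:42798018-42819899, 3 exons), also on the fetal list, was at 0.646, 0.575 and 0.575 FPKM in adult heart, 9.92, 9.27 and 6.91 FPKM in embryonic heart and 0.687, 0.581 and 0.285 FPKM in adult muscle. Adult heart and muscle overlapped at under 1 FPKM and embryonic heart was separate, with a mean ratio of adult over embryonic heart of 0.0688 (log2 fold change -3.64 ± 0.32, SE, limma adjusted p = 0.00017). TCONS_00041526 (ENSDART00000151039, chromosome 19, 7 exons in 491 nt) was at 6.24, 5.23 and 6.72 FPKM in adult heart, 26.6, 29.9 and 24.5 FPKM in embryonic heart and 5.25, 4.44 and 4.95 FPKM in adult muscle, which made it the highest of the 7 fetal-listed members called lower in adult heart. Its log2 fold change was -2.14 ± 0.17 (SE, limma adjusted p = 9.55e-05). TCONS_00097468 (ENSDART00000156268, chromosome 8), with 14 exons in 799 nt, was at 2.56, 1.22 and 2.11 FPKM in adult heart, 12.9, 7.50 and 9.17 FPKM in embryonic heart and 1.14, 2.80 and 2.21 FPKM in adult muscle. Like the others, it separated the embryonic samples from the adult ones, with adult heart and muscle overlapping. It too is on the fetal list, so for all of these members the direction between the hearts is no independent evidence.

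TCONS_00101671 (ENSDART00000136377, chromosome 9, 4 exons) had all 3 tissues apart, at 0.654, 0.770 and 1.15 FPKM in adult heart, 5.86, 5.92 and 5.59 FPKM in embryonic heart and 1.76, 1.95 and 2.30 FPKM in adult muscle. TCONS_00092179 (lnc_btr12_1, chr7:76632790-76658358, 3 exons) was low in adult heart only, at 0.141, 0.0644 and 0.0616 FPKM, against 2.04, 1.99 and 1.24 FPKM in embryonic heart and 3.72, 3.35 and 1.29 FPKM in adult muscle. For this member embryonic heart and muscle overlapped, and adult heart was the tissue that stood apart (log2 fold change -3.29 ± 0.45 against embryonic heart and -3.83 ± 0.45 against muscle, SE, limma adjusted p = 0.0014 and 0.000386). TCONS_00022435 (lnc3_zgc:171223_1, chromosome 14, 4 exons) was alike, at 5.64, 1.87 and 2.61 FPKM in adult heart, 31.4, 20.0 and 28.0 FPKM in embryonic heart and 45.6, 7.21 and 11.2 FPKM in adult muscle, although 1 muscle sample was several times the other two, and its call against muscle was lost without adult heart sample 1 or 2 or muscle sample 0 or 2. TCONS_00024792 (ENSDART00000153861, chromosome 15, 4 exons) was listed at 0 in all adult heart samples, with 1.12, 0.385 and 0.455 FPKM in embryonic heart and 1.76, 0.580 and 0.965 FPKM in adult muscle. TCONS_00101671 and TCONS_00092179 are on the fetal list, and TCONS_00024792 is listed for embryonic heart only. For these members the direction between the hearts is therefore no independent evidence.

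Of the 13 members on the fetal list, 9 were called between adult and embryonic heart, 7 lower and 2 higher. The other 4 were not called: TCONS_00045641, TCONS_00051282, TCONS_00071192 and TCONS_00090729. TCONS_00045641 (chromosome 2, 4 exons) owed its embryonic mean to 1 sample, with 0.401, 7.94 and 0.224 FPKM in embryonic heart, against 0.0200, 0.0636 and 0.0519 FPKM in adult heart (limma adjusted p = 0.0842). TCONS_00090729 (lnc2_cldn7a_1, chromosome 7) was at 3.08, 0.335 and 0.0702 FPKM in adult heart and listed at 0 in all embryonic heart samples (limma adjusted p = 0.08). TCONS_00071192 was at 0.466, 0.697 and 0.374 FPKM in adult heart and likewise listed at 0 in embryonic heart (limma adjusted p = 0.0594). With 0.01 FPKM added in place of 0.1 FPKM, TCONS_00051282, TCONS_00071192 and TCONS_00090729 did pass (limma adjusted p = 0.00399, 0.0228 and 0.018), and TCONS_00045641 passed without embryonic heart sample 1 (adjusted p = 0.0423) or 2 (adjusted p = 0.0375), and TCONS_00090729 without adult heart sample 2 (adjusted p = 0.0263). TCONS_00039873 (chromosome 19, 6 exons), with 0.308, 2.33 and 0.747 FPKM in embryonic heart against 0.0968, 0.154 and 0.140 FPKM in adult heart, only just passed (limma adjusted p = 0.0472). It lost its call without any 1 of the adult heart samples 0, 1 and 2 or the embryonic heart samples 1 and 2.

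Members higher in adult heart were mostly found in muscle too, as were 73.0% of all 122 members (muscle mean above 0.1 FPKM). Over the 23 called higher in adult than in embryonic heart, the median level was 0.897 FPKM in adult heart, 0.096 FPKM in embryonic heart and 1.51 FPKM in adult muscle. Over the 16 called lower, it was 0.110 FPKM in adult heart, 3.54 FPKM in embryonic heart and 0.347 FPKM in adult muscle. The muscle values did not enter the fold change or ratio of these calls, but they did enter the fit's estimate of spread. In both groups muscle was thus nearer to adult heart than to embryonic heart. These medians describe the called members and were not tested.

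TCONS_00061250 (edal95_1, chr23:5591818-5619834, 4 exons, 931 nt) had the largest rise in adult over embryonic heart. It was at 5.96, 9.06 and 7.89 FPKM in adult heart, 0.336, 0.395 and 0.400 FPKM in embryonic heart and 2.48, 1.11 and 0.945 FPKM in adult muscle. The 3 tissues did not overlap, with adult heart on top, muscle between and embryonic heart lowest. Its adult mean was 20.3 times the embryonic mean (log2 fold change 4.00 ± 0.37, SE, limma adjusted p = 0.000195) and 5.05 times the muscle mean (2.36 ± 0.37, adjusted p = 0.00184). The study lists it both as a fetal and as an adult-enriched lincRNA. Both lists were chosen on these samples, so neither direction is independent evidence.

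TCONS_00006692 (ENSDART00000150683, chr1:47622716-47632448, 7 exons) was at 1.99, 2.04 and 2.35 FPKM in adult heart, 0.148, 0.244 and 0.144 FPKM in embryonic heart and 1.63, 3.25 and 3.26 FPKM in adult muscle. Both adult tissues overlapped above embryonic heart, and the adult heart mean was 11.9 times the embryonic mean (log2 fold change 3.02 ± 0.34, SE, limma adjusted p = 0.000541). TCONS_00063883 (lnc_nceh1b_1, chromosome 24, 6 exons) was at 2.53, 3.78 and 5.74 FPKM in adult heart, 0.636, 0.286 and 0.109 FPKM in embryonic heart and 18.7, 9.98 and 6.56 FPKM in adult muscle. For it adult heart stood above embryonic heart and under muscle in every sample. It is on the fetal list, so its direction between the hearts is no independent evidence. TCONS_00092543 (zgc:113057ia3_1, chromosome 7, 5 exons) was at 0.732, 0.805 and 1.15 FPKM in adult heart against 0, 0.0333 and 0 FPKM in embryonic heart. TCONS_00067572 (ENSDART00000154202, chromosome 25) was at 0.594, 0.452 and 0.737 FPKM in adult heart and under 0.001 FPKM in all 3 embryonic samples, with 0.543, 0.512 and 0.403 FPKM in adult muscle. In both cases the embryonic samples were the low ones, and both members are listed for adult heart only, which largely set this direction. TCONS_00081415 (chromosome 5) was less even, at 1.53, 0.917 and 0.231 FPKM in adult heart against 0 to 0.227 FPKM in embryonic heart, and lost its call without any 1 of the adult heart samples 0 and 1 or the embryonic heart samples 0 and 1. It is also listed for adult heart only.

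**Figure D3:**
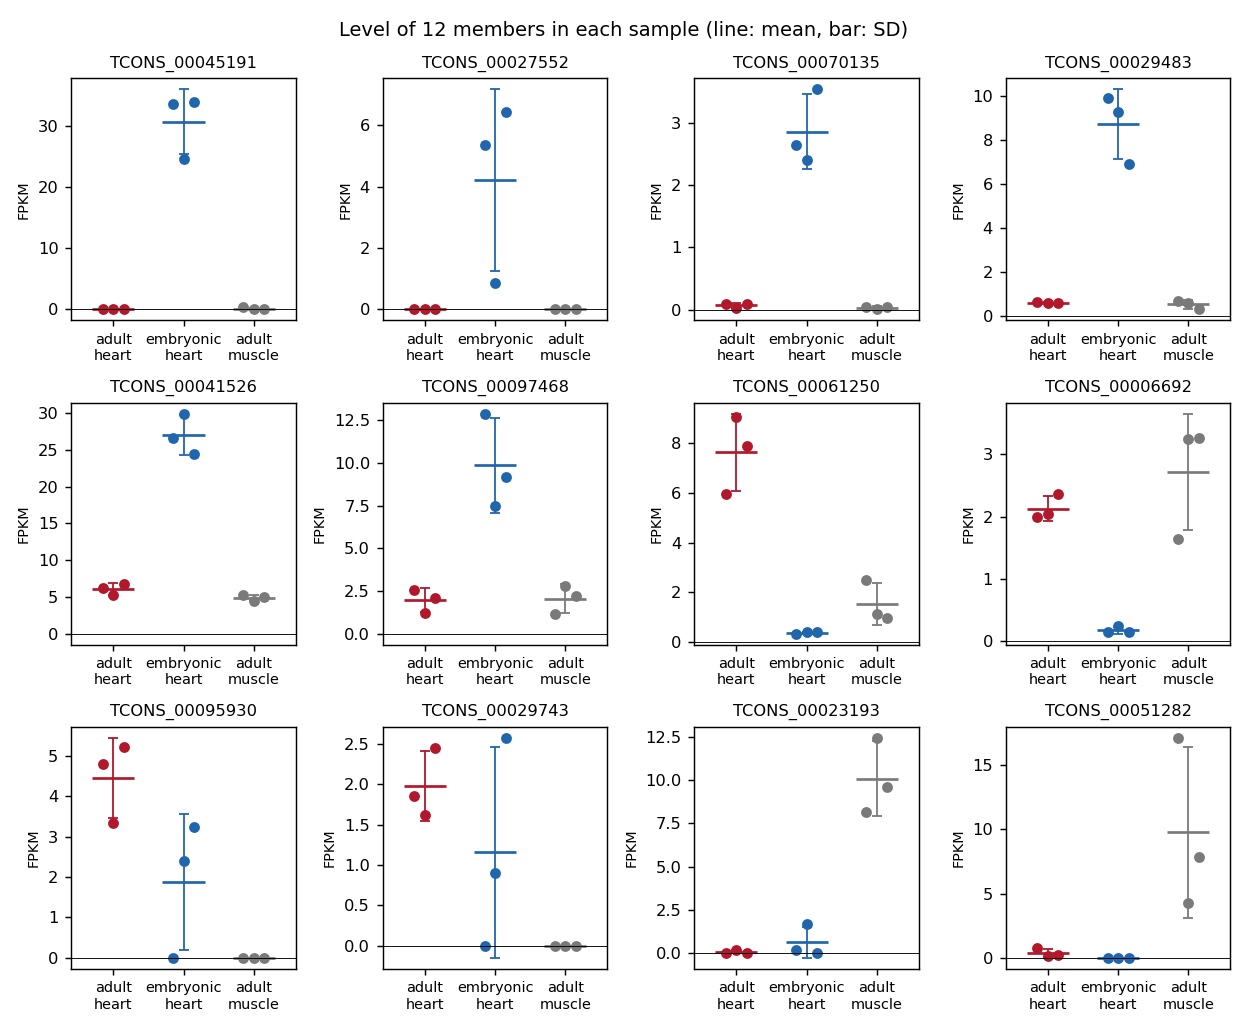
FPKM of 12 members in each sample of adult heart, embryonic heart and adult muscle (points), with the mean (line) and SD (bar, n = 3 each) and an axis for each member. The first 6 panels are highest in embryonic heart, TCONS_00061250 is highest in adult heart, TCONS_00006692 is low in embryonic heart only, TCONS_00095930 and TCONS_00029743 are near 0 in muscle and in embryonic heart sample 0, and TCONS_00023193 and TCONS_00051282 are highest in muscle.

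The comparison of adult heart with adult muscle asks which lincRNAs favour the heart at the same stage. Of the 122 members, 7 (5.74%) were called higher in adult heart and 14 (11.5%) lower, beside 9.6% higher and 11.1% lower of all transcripts tested (limma, Benjamini-Hochberg). Although the members were listed for expression in heart, the share called higher was under that of all transcripts. Without adult heart sample 2, 4 were called higher, and 4 of the 7 and 10 of the 14 calls held when each of the 6 samples was left out in turn. Cardiac lincRNAs other than the members gave 114 higher and 68 lower of 688 tested, and the unannotated ones with 3 or more exons 15 higher and 5 lower of 69. The 36 members on the heart-specific sheet gave 4 higher and 0 lower (limma, 11 with an unadjusted p below 0.05 in either direction), and the other 86 gave 3 higher and 14 lower. That the first 36 had none lower follows from their listing. Their 4 members called higher were TCONS_00095930, TCONS_00029743, TCONS_00066876 and TCONS_00031769. The low muscle values of these were part of the listing, so their rises over muscle are no independent evidence.

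TCONS_00095930 (ENSDART00000156340, chr8:26586814-26605210, 4 exons, 7854 nt) had the largest rise in adult heart over muscle. It was at 4.81, 3.33 and 5.22 FPKM in adult heart, 0.00207, 2.39 and 3.25 FPKM in embryonic heart and under 0.001 FPKM in all 3 muscle samples. All adult heart samples lay above the embryonic ones, without a call between the hearts (limma adjusted p = 0.203). Embryonic heart samples 1 and 2 were not far below adult heart, and sample 0 was near muscle. The log2 fold change over muscle was 5.48 ± 1.14 (SE, limma adjusted p = 0.00869), a size that depends on the 0.1 FPKM added before taking logs. Whether reads in the samples near 0 were assigned to other transcripts was not tested. TCONS_00029743 (lnc_efhb_1, chr16:53005508-53022606, 5 exons) was alike in muscle and in embryonic heart sample 0, while its hearts overlapped. It was at 1.86, 1.62 and 2.46 FPKM in adult heart, under 0.001, 0.896 and 2.58 FPKM in embryonic heart and under 0.001 FPKM in all muscle samples. Its rise over muscle (log2 fold change 4.36 ± 1.01, SE, limma adjusted p = 0.0147) was not called without adult heart sample 2. The low value again came from embryonic heart sample 0 alone.

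TCONS_00066876 (ENSDART00000112844, chromosome 25, 3 exons) was at 0.786, 0.898 and 0.222 FPKM in adult heart, 1.30, 2.96 and 1.10 FPKM in embryonic heart and listed at 0 in all muscle samples. Both hearts thus stood above muscle, embryonic heart higher than adult heart in every sample but without a call between them (limma adjusted p = 0.112). TCONS_00096387 (lnc_gck_1, chromosome 8, 5 exons), which is on the adult-enriched list, was at 3.26, 2.70 and 3.44 FPKM in adult heart, 1.46, 0.516 and 1.43 FPKM in embryonic heart and 1.003, 0.321 and 0.562 FPKM in adult muscle. Its adult heart samples were above all others, with a mean 4.98 times that of muscle. TCONS_00039915 (ENSDART00000137192, chromosome 19, 6 exons) had the smallest called rise, at 3.59, 3.58 and 3.95 FPKM in adult heart against 1.43, 2.01 and 1.77 FPKM in adult muscle, and was not called without adult heart sample 2 or muscle sample 0. TCONS_00031769 (chromosome 16) was called at the low level of 0.0806, 0.235 and 0.229 FPKM in adult heart, with muscle under 0.001 FPKM, and not without adult heart sample 2.

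Over the 14 members called lower in adult heart than in muscle, the median was 0.856 FPKM in adult heart, 1.46 FPKM in embryonic heart and 8.71 FPKM in adult muscle. Over the 7 called higher it was 3.13 FPKM in adult heart, 1.16 FPKM in embryonic heart and under 0.001 FPKM in adult muscle. Of these 7, 4 are on the heart-specific sheet, which was chosen for low muscle values. TCONS_00023193 (lnc_rnf20_1, chr14:22053769-22067290, 4 exons, 3534 nt) was at 0.142 FPKM in adult heart sample 1 and under 0.001 FPKM in the other two, at 0.175, 1.65 and under 0.001 FPKM in embryonic heart and at 8.18, 12.5 and 9.64 FPKM in adult muscle. Its log2 fold change was -6.23 ± 0.92 in adult heart over muscle (SE, limma adjusted p = 0.00144). TCONS_00027090 (ENSDART00000155153, chr15:28944812-28947773, 3 exons) was at 6.65, 1.51 and 0.632 FPKM in adult heart, 2.41, 3.58 and 3.10 FPKM in embryonic heart and 54.5, 32.5 and 50.1 FPKM in adult muscle. All muscle samples of both members lay far above all heart samples.

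TCONS_00051282 (ENSDART00000148196, chr20:46329262-46336514, 4 exons) was at 0.759, 0.127 and 0.210 FPKM in adult heart, listed at 0 in all embryonic heart samples and at 17.2, 4.27 and 7.88 FPKM in adult muscle. It was called lower in embryonic heart than in muscle (limma adjusted p = 9.58e-05), and the adult heart samples also lay below every muscle sample. TCONS_00049144 (ENSDART00000153117, chromosome 20) was at 0.000125, 0.105 and under 0.001 FPKM in adult heart, 1.10, under 0.001 and 1.09 FPKM in embryonic heart and 1.17, 4.67 and 5.92 FPKM in adult muscle. TCONS_00009311 (ENSDART00000137620, chr10:1734814-1745093, 3 exons) combined a high level with an order of all 3 tissues, at 19.3, 14.8 and 15.5 FPKM in adult heart, 36.6, 36.7 and 28.8 FPKM in embryonic heart and 48.9, 60.1 and 42.4 FPKM in adult muscle. Its adult heart samples were below all others, with a mean 0.328 times that of muscle and 0.486 times that of embryonic heart. Embryonic heart and muscle did not overlap but differed by less than 2-fold. The call between the hearts was lost without adult heart sample 1 or 2 or embryonic heart sample 0 or 1.

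The comparison of embryonic heart with adult muscle differs in stage as well as tissue, and these cannot be told apart. Of the 122 members, 17 (13.9%) were called higher in embryonic heart and 27 (22.1%) lower, beside 10.9% higher and 17.3% lower of all transcripts tested (limma, Benjamini-Hochberg). Cardiac lincRNAs other than the members were close to the members, with 13.1% higher and 20.5% lower. This comparison shares samples with both comparisons above. When each of the 6 samples was left out in turn, 10 of the 17 and 19 of the 27 calls held. Quantile normalization moved the median log2 fold change of all transcripts to 0.08, from -0.13, and gave 22 members higher and 22 lower. Over the 17 called higher, the median was 2.86 FPKM in embryonic heart and 0.0887 FPKM in adult muscle, and over the 27 called lower 0.344 FPKM in embryonic heart and 2.71 FPKM in adult muscle. The largest rises were those of TCONS_00045191 (log2 fold change 7.62 ± 0.51, SE, limma adjusted p = 1.05e-05), TCONS_00027552, TCONS_00070135, TCONS_00066876 and TCONS_00029483. All of these except TCONS_00029483 are on the heart-specific sheet, so their low muscle values were part of the listing. All 17 members called higher carry Ensembl names, as do 95 of the 122 members. These 95 gave 17 higher (17.9%) and 20 lower (21.1%). The 27 zflncRNApedia members gave 0 higher and 7 lower (25.9%, limma, 11 with an unadjusted p below 0.05 in either direction). The difference between the name sources was not tested.

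TCONS_00070246 (ENSDART00000154331, chr3:30845519-30846221), the shortest member at 228 nt, was at 2.72, 2.87 and 4.14 FPKM in adult heart, 6.30, 8.44 and 15.5 FPKM in embryonic heart and 1.13, 0 and 2.52 FPKM in adult muscle. Its embryonic samples lay above all others (log2 fold change over muscle 3.79 ± 1.03, SE, limma adjusted p = 0.0219), but the call was not made without embryonic heart sample 1 or 2. TCONS_00014568 (ENSDART00000152652, chr12:18784060-18807005, 3 exons) ran the other way, at 0.905, 0.724 and 0.928 FPKM in adult heart, 0, 0.197 and 0.0860 FPKM in embryonic heart and 5.06, 7.65 and 10.2 FPKM in adult muscle. The 3 tissues were apart in every sample, with embryonic heart lowest and muscle highest (embryonic heart over muscle -5.40 ± 0.44 on the log2 scale, SE, limma adjusted p = 3.64e-05).

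**Figure D4:**
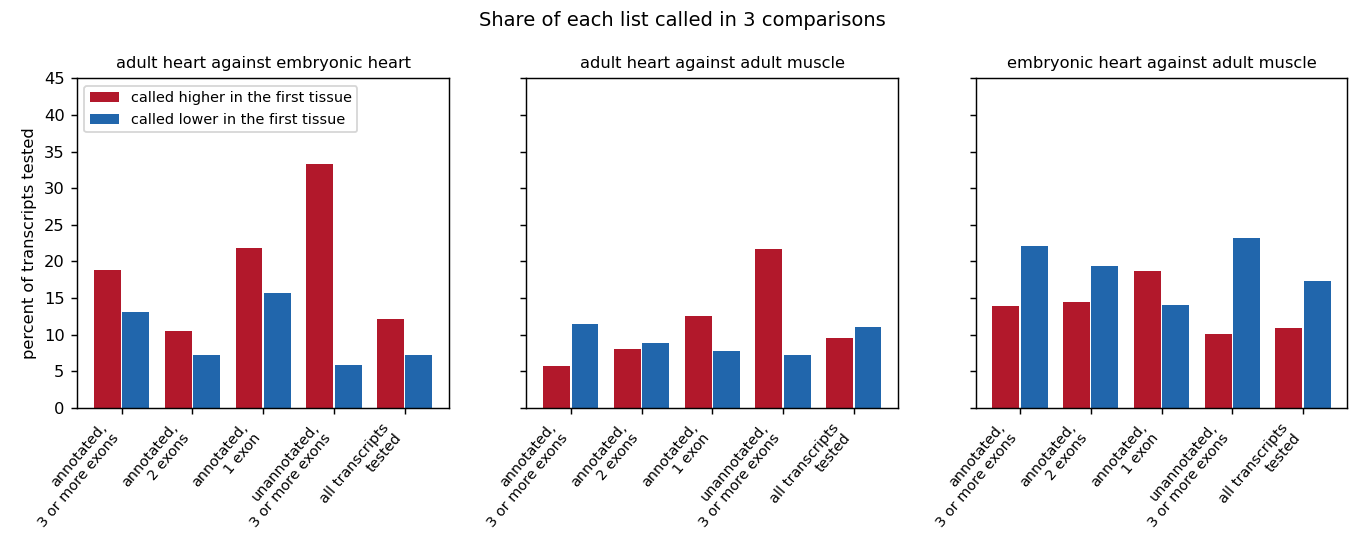
Percent of the tested transcripts called higher (red) or lower (blue) in the first tissue of each comparison, for the annotated cardiac lincRNAs with 3 or more exons, 3 other lists of cardiac lincRNAs and all transcripts tested, by limma with Benjamini-Hochberg adjustment below 0.05 and a ratio above 2. The annotated lincRNAs with 3 or more exons reach 18.9% and 13.1% in adult against embryonic heart, 5.74% and 11.5% in adult heart against muscle and 13.9% and 22.1% in embryonic heart against muscle.

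Being on the heart-specific sheet did not mean a high level. Among these 36 members, the median of the higher heart mean was 0.283 FPKM, 24 members were below 0.5 FPKM and 8 above 1 FPKM. Muscle was listed at 0 in all 3 samples for 4 of them, and 13 had 1 muscle sample above 0.1 FPKM. The highest was TCONS_00045191, at 30.7 ± 5.30 FPKM in embryonic heart and 0.0887 ± 0.151 FPKM in adult muscle (SD, n = 3 each).

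Several members lie on top of each other. In 11 loci 2 or more members overlapped, 23 members in all, and 13 clusters within 10 kb held 30 members. Overlap was judged from genomic spans and not from exons, and assembled transcripts other than the members were not counted. Shares and sums of a locus below are therefore those among its members only. Overlapping transcripts can share reads, and the assignment of reads to each was an estimate of the authors' software, so the split is uncertain. TCONS_00038368 and TCONS_00038369 (chr18:24773962-24780342, 5 exons each) divided their locus nearly evenly, TCONS_00038368 taking 43.9 to 52.3% in all 9 samples. Their sum was 76.8, 62.9 and 60.3 FPKM in adult heart, 72.3, 61.8 and 42.8 FPKM in embryonic heart and 80.2, 95.1 and 77.4 FPKM in adult muscle, with muscle above both hearts.

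At chr1:6993873-6996637, TCONS_00003136 and TCONS_00003145 (6 exons each) summed to 18.7, 20.4 and 22.7 FPKM in adult heart, 7.03, 6.42 and 10.2 FPKM in embryonic heart and 31.4, 32.8 and 31.8 FPKM in adult muscle. The 3 tissues did not overlap in the sum, and both members were called higher in adult than in embryonic heart, TCONS_00003145 not without adult heart sample 1 or 2. At chr14:21316-22477, TCONS_00021304 took 65.9, 78.9 and 70.5% of its locus in adult heart, 84.9, 81.5 and 82.5% in embryonic heart and 59.1, 68.8 and 38.1% in adult muscle, the rest going to TCONS_00021303. The sum ran from 4.71 to 9.14 FPKM without separating the tissues, so here the share and not the sum stood apart in embryonic heart.

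At the chromosome 16 locus (chr16:42798018-42819918), TCONS_00029483 and TCONS_00029485 were both called higher in embryonic than in adult heart, TCONS_00029485 only with adult heart samples 1 and 2 and all embryonic samples included, and their sum was 1.08, 0.861 and 0.642 FPKM in adult heart against 11.6, 10.8 and 8.10 FPKM in embryonic heart. On chromosome 19 (chr19:15459276-15462787), TCONS_00041526 took 84.3 to 100% in adult heart, 97.5 to 100% in embryonic heart and 80.7 to 100% in adult muscle. TCONS_00041527 was measured in 2 adult heart samples, 1 embryonic heart sample and, at its highest level of 1.25 FPKM, adult muscle sample 0. A second locus of that chromosome (chr19:27949484-27954927) held TCONS_00042014, TCONS_00042018 and TCONS_00042026, with 8, 11 and 7 exons. TCONS_00042018 was the main one, at 9.06, 5.49 and 7.51 FPKM in adult heart, 2.44, 3.98 and 3.60 FPKM in embryonic heart and 2.99, 4.995 and 3.50 FPKM in adult muscle. Its adult heart samples lay above all others, and the call against embryonic heart (log2 fold change 1.11 ± 0.29, SE, limma adjusted p = 0.0272) was not met by the other 2 members of the locus. It was lost without adult heart sample 0 or 2 or embryonic heart sample 0.

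**Figure D5:**
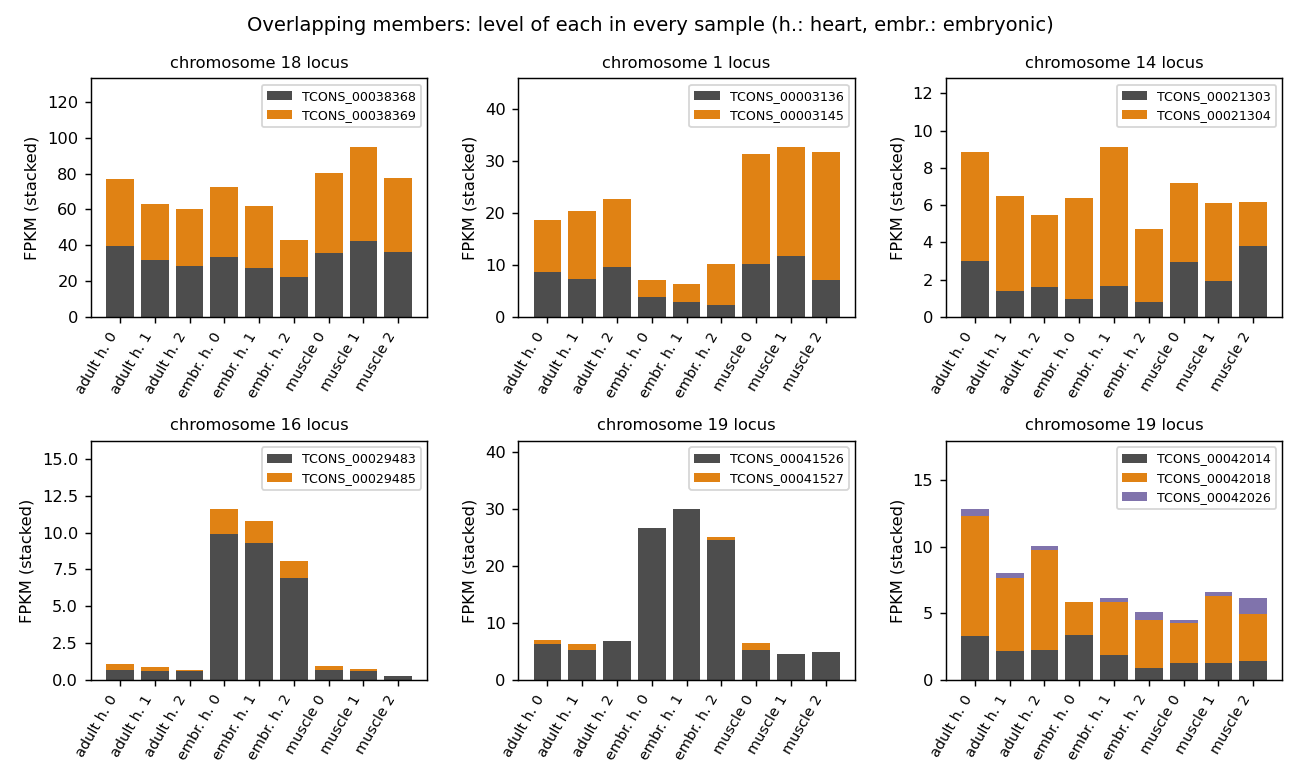
Stacked FPKM of overlapping members at 6 loci in each of the 9 samples, adult heart first, then embryonic heart and adult muscle. The chromosome 18 pair is split nearly evenly in every sample, the chromosome 1 pair is lowest in embryonic heart, the chromosome 16 pair and the first chromosome 19 pair are highest in embryonic heart, and TCONS_00021304 takes its largest share of the chromosome 14 pair in embryonic heart.

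At the remaining overlapping loci the split varied widely between samples. TCONS_00039916 took 19.7% of its locus with TCONS_00039915 in adult heart sample 0, 28.9% in embryonic heart sample 1 and 23.7% in embryonic heart sample 2, and almost none in the other 6 samples, while their sum was 3.58 to 4.47 FPKM in adult heart and 2.47 to 3.18 FPKM in embryonic heart. The sums of TCONS_00053092 with TCONS_00053095, TCONS_00056306 with TCONS_00056307, and TCONS_00071192 with TCONS_00071196 stayed below 1 FPKM in both hearts. TCONS_00086595 with TCONS_00086599 reached 1.83 FPKM in embryonic heart sample 1 and was at 0.139 FPKM or less in adult heart. Both members of the TCONS_00056306 and TCONS_00071192 loci were under 0.001 FPKM in every embryonic heart sample.

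Spread between samples of a tissue limited some members. Among members with a tissue mean above 1 FPKM, the samples of that tissue were over 10-fold apart for 4 of 46 in adult heart, 4 of 53 in embryonic heart and 1 of 54 in adult muscle. The median SD on the log2 scale was 0.30 in adult heart, 0.37 in embryonic heart and 0.32 in adult muscle, against 0.29, 0.42 and 0.31 over all transcripts in these tissues. TCONS_00059530 (chromosome 23, 3 exons), one of these 9 cases, was at 22.9, 0.393 and 8.49 FPKM in adult heart, 1.60, 2.62 and 4.56 FPKM in embryonic heart and 15.6, 34.3 and 13.2 FPKM in adult muscle, and adult and embryonic heart overlapped.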

How the data were processed

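Total RNA from 9 zebrafish samples (3 of adult heart, 3 of embryonic heart, 3 of adult muscle) had been sequenced in pairs of short reads. Per the labels and the study's methods, the authors aligned reads with TopHat2 2.0.12 to Zv9, assembled transcripts with Cufflinks 2.2.1 and deposited FPKM per assembled transcript from Cuffnorm. The library scaling option used in Cuffnorm is not given in the sources used here. Exon numbers, lengths and Zv9 coordinates of the members came from the study's catalogue. Depth is known only relative to adult heart 0, so no counting intervals were given. The labels give no culture or clutch, and the methods call the samples biological. The p-values rest on the spread within tissues, pooled over all 9 samples and drawn by limma toward that of transcripts of similar level. They do not measure the spread of the 2 compared tissues alone. For a member listed at 0 throughout a tissue, those samples add no spread, so its p can understate the spread where it was measured.

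Members and lists were chosen with earlier results of these data known. limma 3.58.1 (R 4.3.3) was fitted to log2(FPKM + 0.1) of all 9 samples with tissue as the term and an intensity trend, over the 69118 transcripts with a mean above 0.1 FPKM in at least 1 tissue, with two-sided tests and Benjamini-Hochberg adjustment. Calls needed an adjusted p under 0.05 together with means more than 2-fold apart. A limma fit replaced the authors' Cuffdiff test, which needs reads. The fit was also run on simulated data with independent noise for each transcript. These held no shared reads, so the run does not test calls at overlapping loci. Named members were, per comparison, up to 6 with the largest rise and fall without overlap, the 10 highest levels, members on the study's fetal or adult-enriched lists, overlapping members, those with 9 or more exons, the longest and shortest, and those listed at 0 in a tissue but at 1 FPKM or more in another. TCONS_00027553, TCONS_00045189 and TCONS_00059530 were named after their values were seen. Of 1098 member values, 97 were exact zeros and 85 more were under 0.001 FPKM. For none of these was it tested whether reads had been assigned to other transcripts. Overlapping members were those whose genomic spans shared at least 1 base, and locus shares and sums were taken over members only. Alternatives are given in the closing section. Python 3.11.15 with pandas 2.3.3 was used for tables.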

Additional observations from a re-analysis of the deposited data

How the results depend on the processing

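With 3 samples a tissue, FPKM without read totals and shared reads at overlapping loci, low members carry the least certain values. The alternative runs followed 45 fold changes of named members, and none of these reversed. Other fold changes of named members were not followed, and small ones can change sign. Which direction held more members did turn round between adult and embryonic heart. It did so with quantile normalization (16 higher, 18 lower) and at an adjusted p below 0.01 (9 higher, 11 lower). It also did so without adult heart sample 0 (15 and 17) or 1 (12 and 13). Between embryonic heart and muscle the directions were even with quantile normalization (22 and 22). At an adjusted p below 0.01, adult heart against muscle gave 4 members higher and 8 lower, and embryonic heart against muscle 10 higher. Fitting only the 2 tissue types compared gave 11 members higher in embryonic heart than in muscle. Leaving out each sample in turn gave 12 to 21 higher and 13 to 17 lower in adult against embryonic heart, 4 to 9 higher and 10 to 13 lower in adult heart against muscle, and 12 to 19 higher and 21 to 24 lower in embryonic heart against muscle. The median level was then 0.545 to 0.597 FPKM in adult heart, 0.591 to 0.734 FPKM in embryonic heart and 0.645 to 0.738 FPKM in adult muscle. With a threshold of 0.5 FPKM, 67 members were expressed in adult heart, and with 1 FPKM 46 in adult heart, 53 in embryonic heart and 54 in adult muscle. Other pseudocounts, filters on low values, median-ratio rescaling and the fit without intensity trend kept each count of calls within 1.5 times. Of named members, TCONS_00039873 and TCONS_00081415 lost their calls between the hearts at log2(FPKM + 1), with no filter, with only the 2 tissue types and with the replicate block, and TCONS_00081415 also with quantile normalization. Calls were further lost at log2(FPKM + 1) by TCONS_00066876 over muscle and TCONS_00092543 between the hearts, with only the 2 tissue types by TCONS_00031769 over muscle, and at log2(FPKM + 0.01), with no filter and with only the 2 tissue types by TCONS_00070246 over muscle. Calls between the hearts were gained by TCONS_00051282, TCONS_00071192 and TCONS_00090729 at log2(FPKM + 0.01), by TCONS_00051282 also with a filter at 1 FPKM and with the block, by TCONS_00071192 with only the 2 tissue types and by TCONS_00045641 with quantile normalization. The replicate numbers of the labels were not taken as pairs, since correlations of deviations between same-numbered samples were -0.02 to 0.07, none over 0.1. A sample correlated best with its own number in 12 of 18 cases, where 6 would come with no pairing. These cases use each correlation from both sides and include embryonic against adult samples, which cannot share fish. Between adult heart and muscle, the same-numbered correlations were 0.071, -0.016 and -0.0072, and a different-numbered one reached 0.068. The 12 cases are therefore no clear hint of pairing. A fit with the replicate number as a block gave 19 higher and 15 lower in adult against embryonic heart, 7 and 12 in adult heart against muscle and 14 and 23 in embryonic heart against muscle.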
